A study of Homo sapiens with 78 samples.

Results

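Transcript usage was compared between 2 human cell lines, the melanoma line A375 and the T cell leukemia line Jurkat, in single-cell total RNA libraries made with the SMART-Seq Stranded Kit (#634444). The wells were chosen by the kit and cell line on their labels and by a total of at least 200000 estimated counts, which kept 34 of the 39 wells of this kit and of the 78 wells of the series. They comprise 16 of 21 A375 wells and 18 of 18 Jurkat wells. The 5 A375 wells left out held between 1230 and 80958 counts. Each well holds 1 cell sorted by FACS, A375 cells in PBS buffer and Jurkat cells in lysis solution. A375 cells were grown in DMEM and Jurkat cells in RPMI medium. The cell line, the sort buffer and the culture medium therefore cannot be told apart. The cells were stained before sorting with an antibody against CD47 for A375 and against CD81 for Jurkat. Both are established lines grown in culture, and no source used here says that the wells of a line came from separate cultures, so all p-values measure the spread between wells only.

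A gene can give rise to several transcripts (isoforms) that differ in their first exon, in the exons joined by splicing or in their 3′ end. Alternative first exons come from separate promoters and can change the N-terminus of the protein, while cassette exons add or remove an internal stretch. Some isoforms keep an intron or carry an early stop codon, and these are classed as retained intron transcripts or as targets of nonsense-mediated decay. Melanoma cells adhere and carry a dense actin and microtubule network, whereas T cells grow in suspension, and many cytoskeletal genes are known to have tissue-specific isoforms.

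The values are the estimated counts that the program Kallisto assigned to each Ensembl transcript, without normalization. Genes were kept when 50% or more of A375 wells and of Jurkat wells held 10 or more of their counts. The share of a transcript was its percentage of the gene's counts in each such well. This kept 5997 autosomal genes with 59933 transcripts. The total of a well lay between 327162 and 2567265 in A375 (median 755639.5), and between 447397 and 1232381 in Jurkat (median 766736.5). The median gene kept held 37 counts per A375 well and 38.5 per Jurkat well, and the spread was accordingly wide: the median SD of a tested share was 20.2 percentage points over A375 wells and 25.3 over Jurkat wells. No pair of wells among 561 held identical counts (0 pairs). Kallisto divides reads between overlapping isoforms by an iterative estimate, and with no repeated estimates used here the error of that division within a well is unknown, also for a share of 0.

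The labels were checked with markers. LCP1, which encodes the leukocyte actin-bundling protein L-plastin, reached 1150 ± 243 CPM (counts scaled to the total of the well) in Jurkat (SD, n = 18) against 0.073 ± 0.292 in A375 (SD, n = 16). ZAP70, a kinase of the T cell receptor pathway, was at 199 ± 81.3 in Jurkat and 0.278 ± 1.11 in A375. CSPG4, a melanoma surface proteoglycan, was at 560 ± 602 CPM in A375 and 0.0981 ± 0.416 in Jurkat, and S100A6, a calcium-binding protein, at 744 ± 545 and 0. The summed level of 15 T cell leukemia markers lay between 2520 and 5790 CPM in Jurkat wells and between 0 and 51.9 in A375 wells, and that of 15 melanoma line markers between 4010 and 17700 in A375 wells and between 357 and 956 in Jurkat wells. Among markers of other cell types, 6 fibroblast genes summed to at most 35.6 CPM in any well and 8 B cell or myeloid genes to at most 95.2, while 5 epithelial genes summed to between 125 and 362 in A375, mainly from KRT18 (188 ± 62.9) and KRT8 (40.8 ± 21.1), with EPCAM at 0.448 ± 1.26.

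The sequences that follow show what sets the isoforms of 7 genes apart, chosen among the genes called by both tests because their isoforms differ in coding sequence. Each is a coding stretch of an isoform with a higher mean share in 1 line, lying outside every exon of the isoform to which it is compared, although further isoforms of the gene may share it. Positions are on GRCh38 in the GENCODE v44 annotation, sequences run 5′ to 3′ on the gene's strand, and capitals mark the annotated start codon. ARHGEF2-205 (ENST00000462460, 26 exons, minus strand of chromosome 1) starts 11646 bases upstream of ARHGEF2-201 (22 exons), and each has a start codon of its own, in exon 3 at chr1:155985332-155985395 for ARHGEF2-205 and in exon 1 at chr1:155978365-155978427 for ARHGEF2-201.
ARHGEF2-205 first coding stretch: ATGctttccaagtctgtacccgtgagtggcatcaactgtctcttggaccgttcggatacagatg
ARHGEF2-201 first coding stretch: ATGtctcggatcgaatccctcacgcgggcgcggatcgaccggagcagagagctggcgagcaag
RCAN1-202 (ENST00000381132, 4 exons, minus strand of chromosome 21) starts 86880 bases downstream of RCAN1-204 and opens with 87 coding bases in exon 1, at chr21:34526663-34526749, where RCAN1-204 has 9 coding bases in a first exon of its own.
RCAN1-202 first coding stretch: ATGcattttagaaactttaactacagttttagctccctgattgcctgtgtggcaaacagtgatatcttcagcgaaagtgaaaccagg
SEPTIN9-201 (ENST00000329047, 11 exons, plus strand of chromosome 17) starts 131219 bases upstream of SEPTIN9-208 and has 667 coding bases that SEPTIN9-208 lacks, 22 in exon 1 at chr17:77320327-77320348 and 645 in exon 2, of which the first 150 are printed (chr17:77402059-77402208).
SEPTIN9-201 exon 1 coding stretch: ATGgagagggaccggatctcag
SEPTIN9-201 exon 2, first 150 bases: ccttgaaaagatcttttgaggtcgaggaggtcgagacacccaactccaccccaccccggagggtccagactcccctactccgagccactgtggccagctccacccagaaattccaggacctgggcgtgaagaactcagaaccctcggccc
ACOT7-204 and ACOT7-209 (9 exons each, minus strand of chromosome 1) begin at first exons 7548 bases apart, with 173 coding bases in exon 1 of ACOT7-204, of which the first 150 are printed (chr1:6385517-6385666), and 47 in that of ACOT7-209 (chr1:6393257-6393303).
ACOT7-204 exon 1, first 150 coding bases: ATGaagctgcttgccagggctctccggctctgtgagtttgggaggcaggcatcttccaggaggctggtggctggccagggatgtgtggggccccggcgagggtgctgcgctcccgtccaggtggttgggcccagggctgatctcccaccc
ACOT7-209 exon 1 coding stretch: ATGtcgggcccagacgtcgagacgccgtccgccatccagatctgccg
PHC2-201 (ENST00000257118, 14 exons, minus strand of chromosome 1) starts 25708 bases upstream of PHC2-202 (7 exons) and has 1555 coding bases in 8 stretches that PHC2-202 lacks. The first 150 of them are in exon 1 at chr1:33375390-33375539.
PHC2-201 exon 1, first 150 coding bases: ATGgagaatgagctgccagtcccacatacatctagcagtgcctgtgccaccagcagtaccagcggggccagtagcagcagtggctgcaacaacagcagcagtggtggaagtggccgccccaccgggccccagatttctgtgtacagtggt
MAP4-207 (ENST00000426837, 21 exons, minus strand of chromosome 3) differs from MAP4-202 (19 exons) by 2 internal coding exons, exon 3 of 51 bases at chr3:47987383-47987433 and exon 10 of 3384 bases, whose first 150 are at chr3:47912272-47912421.
MAP4-207 exon 3: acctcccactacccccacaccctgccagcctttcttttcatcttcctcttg
MAP4-207 exon 10, first 150 bases: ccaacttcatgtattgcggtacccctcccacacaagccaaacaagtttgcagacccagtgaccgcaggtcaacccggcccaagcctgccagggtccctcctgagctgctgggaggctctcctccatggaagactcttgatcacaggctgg
CD46-208 (ENST00000367042, 13 exons, plus strand of chromosome 1) has 1 coding exon of 45 bases, exon 7 at chr1:207767779-207767823, that CD46-207 (12 exons) skips.
CD46-208 exon 7: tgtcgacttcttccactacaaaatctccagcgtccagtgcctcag

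Usage was tested in 2 ways, both two-sided. The edgeR test used the counts of all 34 wells. The permutation test used the shares, and so only the wells with at least 10 counts of the gene. An n given with a share counts these wells and does not apply to the edgeR test. A transcript was called when its adjusted p was under 0.05 and its mean share differed by at least 10 percentage points. Of 23341 transcripts tested in 5340 genes, edgeR's quasi-likelihood test of transcript usage called 125 in 120 genes, 99 with a higher share in A375 (0.424% of those tested) and 26 with a higher share in Jurkat (0.111%). At least 1 transcript was called in 2.25% of the genes tested. An unadjusted p under 0.05 was reached by 1450 transcripts. Of the 99 transcripts higher in A375, 97 had a mean share under 5% in Jurkat and 69 had fewer than 0.01 counts over all Jurkat wells. All 26 transcripts higher in Jurkat had a mean share under 5% in A375. A permutation test of the share in each well called 129 transcripts in 114 genes (0.553% of those tested), 103 higher in A375 and 26 higher in Jurkat. Both tests called the same 26 transcripts of 23 genes (0.111% of those tested), which is 20.8% of the edgeR calls and 20.2% of the permutation calls. All 26 were higher in A375, 21 of them protein coding and 5 retained intron transcripts, and 15 held fewer than 0.01 counts over all Jurkat wells. These 26 were chosen for description after their values were seen.

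**Figure D1:**
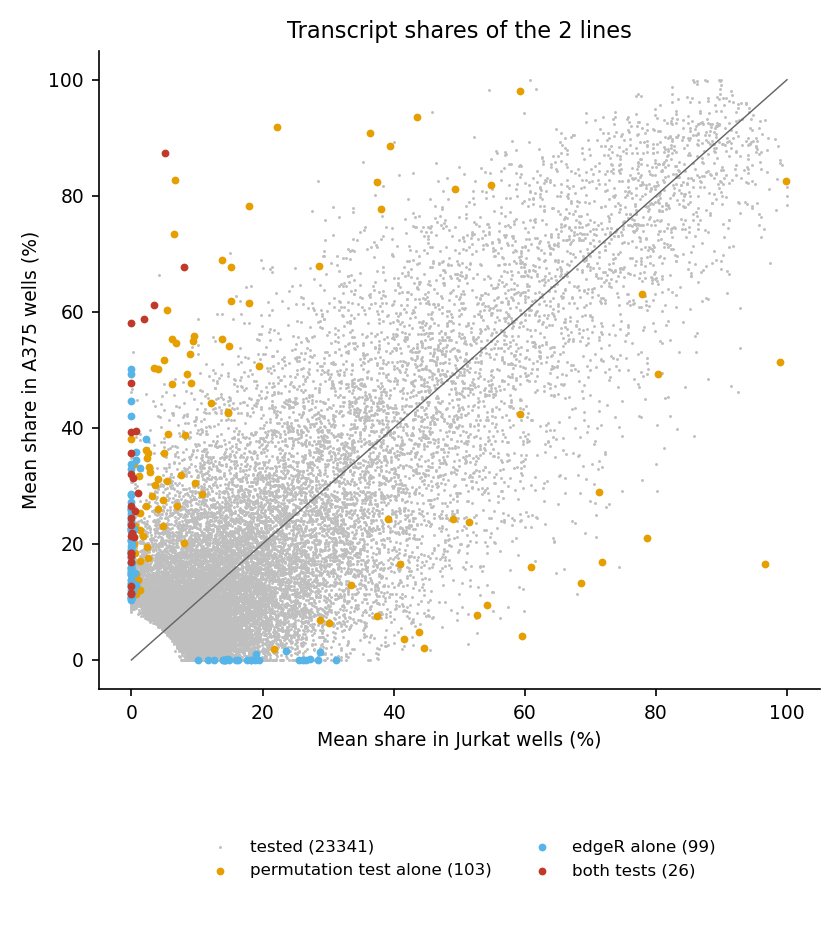
Mean share of each of the 23341 tested transcripts in Jurkat wells (x axis, %) and in A375 wells (y axis, %), coloured by the test that called it, with a line of equal shares. Most edgeR calls lie on an axis, at a share near 0 in 1 line, the permutation calls spread over the upper left and lower right, and the 26 transcripts called by both lie along the left edge.

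ARHGEF2, which encodes GEF-H1, a microtubule-bound activator of the GTPase RhoA, had the smallest edgeR p of the transcripts tested. The share of ARHGEF2-205 was between 0.0944% and 82.3% in A375 wells with a median of 64.1%, and 0 in every Jurkat well. Its mean was 58% ± 21.6 (SD, n = 16) in A375 against 0 in Jurkat (n = 17, edgeR adjusted p = 9.83e-15 and permutation adjusted p = 0.00834). The 17 wells enter a total of 2624 Jurkat counts of the gene, which allows a share of up to 0.114%, counting error alone considered. Jurkat wells used ARHGEF2-201 instead, at 54.2% against 18.5% in A375, a difference that neither test called. The gene total was higher in A375, 459 ± 129 against 177 ± 88.5 CPM (log2 fold change 1.47 ± 0.30 SE, edgeR adjusted p = 7.49e-05).

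MAP4, a protein that binds and stabilizes microtubules, also differed in usage and in total. MAP4-207, the isoform with the additional exon of 3384 bases, took between 13.5% and 88.5% of the gene's counts in A375 wells (median 62.6%) and between 0 and 39.8% in Jurkat wells (median 0). It exceeded 1% in 16 of 16 A375 wells and in 3 of 18 Jurkat wells. The means were 61.1% ± 20.5 and 3.45% ± 9.84 (edgeR adjusted p = 0.000353, permutation adjusted p = 0.00834). The leading isoform of Jurkat, MAP4-202, had mean shares of 45.9% in Jurkat and 16.1% in A375. Counts of MAP4 as a whole were higher in A375 (log2 fold change 0.86 ± 0.22 SE, edgeR adjusted p = 0.00166).

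SEPTIN9 encodes a GTP-binding protein of the septin filaments that run along actin and microtubules. SEPTIN9-201 lay between 0 and 65.6% in A375 wells (median 30.7%) and between 0 and 4.82% in Jurkat wells (median 0), with means of 31.4% ± 20.1 (SD, n = 16) and 0.268% ± 1.14 (SD, n = 18, edgeR adjusted p = 0.00106, permutation adjusted p = 0.00834). SEPTIN9-228, a retained intron transcript, averaged 11.6% ± 16 in A375 and 0.000198% in Jurkat (edgeR adjusted p = 0.000536, permutation adjusted p = 0.0354). The isoform of Jurkat was SEPTIN9-208 at 47.4%, against 23% in A375. Here the gene total went the other way, 293 ± 113 CPM in A375 against 786 ± 301 in Jurkat (log2 fold change -1.34 ± 0.19 SE, edgeR adjusted p = 1.54e-07).

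Further cytoskeletal genes were SYNE1 and KLC1. SYNE1 encodes nesprin-1, which ties the nuclear envelope to actin, and 2 of its retained intron transcripts were called by both tests. SYNE1-219 averaged 21.4% ± 16.5 in A375 (n = 16) and 0 in Jurkat (n = 15), and SYNE1-227 averaged 21.2% ± 10.7 and 0.356% ± 0.939 (edgeR adjusted p = 0.000228 and 0.00474). KLC1, a light chain of the microtubule motor kinesin, held KLC1-206 at 25.6% ± 26.5 in A375 and 0.527% ± 2.17 in Jurkat (edgeR adjusted p = 0.0298, permutation adjusted p = 0.033).

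**Figure D2:**
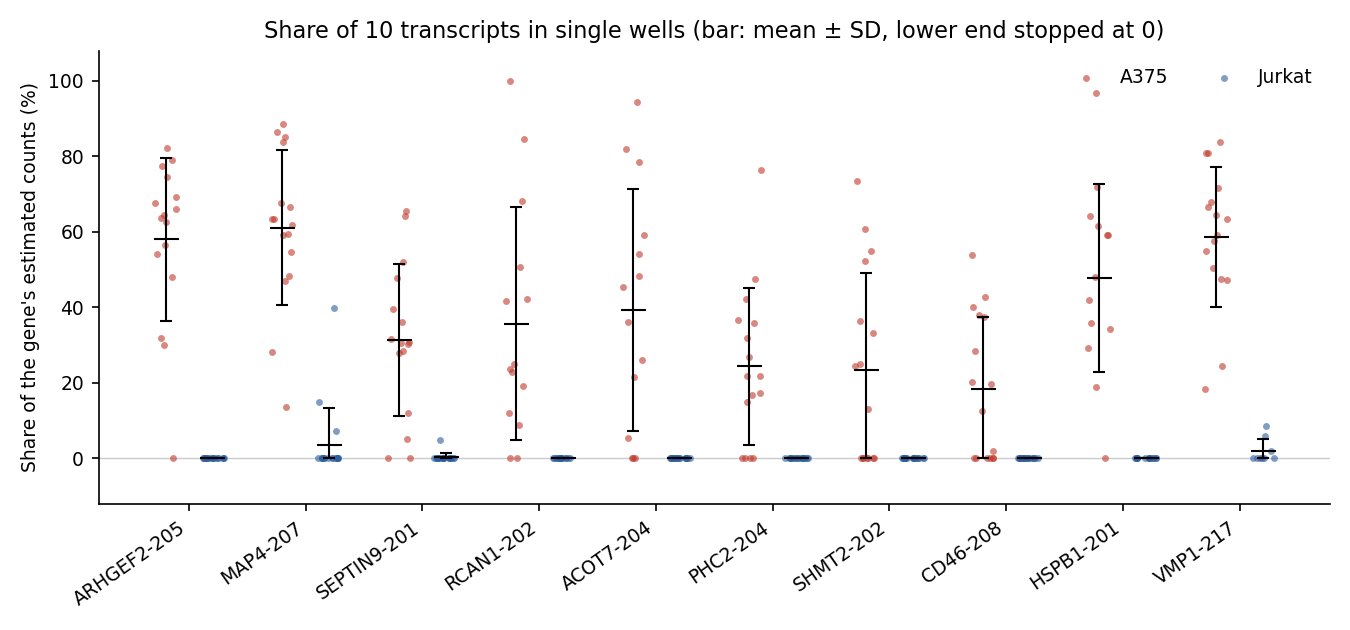
Share of the gene's estimated counts (y axis, %) taken by 10 transcripts in each well with at least 10 counts of the gene, A375 in red and Jurkat in blue, with the mean and SD as black bars whose lower end stops at 0. A375 wells spread widely, up to 100% for RCAN1-202, while Jurkat wells sit at or near 0 except for single wells of MAP4-207 (highest 39.8%), VMP1-217 (8.61%) and SEPTIN9-201 (4.82%).

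RCAN1 encodes an inhibitor of the phosphatase calcineurin, and its isoforms start at separate promoters, of which the downstream one is known to respond to calcineurin itself. RCAN1-202, from the downstream start, ranged from 0 to 100% in A375 wells (median 24.3%) and was 0 in all 14 Jurkat wells. The mean in A375 was 35.6% ± 30.9 (SD, n = 14, edgeR adjusted p = 3.72e-05, permutation adjusted p = 0.0143), and 597 Jurkat counts of the gene allow a share of up to 0.502% there. Jurkat wells divided most of their counts between RCAN1-201 with 44% (6.16% in A375) and RCAN1-204 with 40.4% (28% in A375). The gene total was higher in A375 (log2 fold change 1.56 ± 0.47 SE, edgeR adjusted p = 0.00784).

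Regulators of transcription and of mRNA decay were the next group. PHC2 is a subunit of Polycomb repressive complex 1. Its isoforms PHC2-204 and PHC2-201 averaged 24.4% ± 20.8 and 16.9% ± 18.8 in A375 (n = 16) and 0 in Jurkat (n = 17, edgeR adjusted p = 3.72e-05 and 9.96e-05, permutation adjusted p = 0.00834 and 0.033). They exceeded 1% in 12 and 10 of 16 A375 wells. The short PHC2-202 led in both lines, with 24.4% in A375 and 43.2% in Jurkat. ZFHX3, a large zinc finger and homeobox factor, held ZFHX3-201 at 39.4% ± 34.2 in A375 and 0.746% ± 3.16 in Jurkat (edgeR adjusted p = 6.86e-05, permutation adjusted p = 0.0117), while the isoform ENST00000397992 took 99.0% of its counts in Jurkat and 51.4% in A375. RBPJ, the DNA-binding factor of Notch signalling, held RBPJ-205 at 21.8% ± 25.5 in A375 and 0.0659% ± 0.28 in Jurkat, and NUMB, an inhibitor of Notch, held NUMB-221 at 17.9% ± 18.2 and 0 (edgeR adjusted p = 0.000902 and 0.0168). ZFP36L1 binds AU-rich elements and speeds mRNA decay. ZFP36L1-202 was between 25.5% and 100% in A375 wells and between 0 and 56.4% in Jurkat wells, with means of 87.4% ± 19.2 (SD, n = 16) and 5.19% ± 17 (SD, n = 11, edgeR adjusted p = 0.00435, permutation adjusted p = 0.00834). The Jurkat value rests on 271 counts over 11 wells, and the gene total was lower there (log2 fold change 2.99 ± 0.50 SE, A375 over Jurkat, edgeR adjusted p = 2.95e-06). NKIRAS2-206, from a gene for a Ras-like protein that binds the NF-κB inhibitor, averaged 26.6% ± 29.6 in A375 and 2.02e-06% in Jurkat (edgeR adjusted p = 0.0263, permutation adjusted p = 0.0276).

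Among metabolic enzymes was ACOT7, which hydrolyses long-chain acyl-CoA. ACOT7-204 ranged from 0 to 94.3% in A375 wells (median 40.6%), exceeded 1% in 11 of 14 of them and was 0 in all 18 Jurkat wells, with a mean of 39.3% ± 32.1 in A375 (SD, n = 14, edgeR adjusted p = 0.000137, permutation adjusted p = 0.0117). Jurkat wells used ACOT7-209 at 65%, against 26.8% in A375. The gene total was higher in Jurkat (log2 fold change -0.79 ± 0.30 SE, edgeR adjusted p = 0.0395). Enzymes of serine and one-carbon metabolism were also among the 23 genes. SHMT2-202, from the gene of the mitochondrial serine hydroxymethyltransferase, averaged 23.3% ± 25.7 in A375 and 0 in Jurkat, and PHGDH-208, from the gene of the first enzyme of serine synthesis, 18.4% ± 20.4 and 0 (edgeR adjusted p = 6.86e-05 and 0.00115). LRPPRC-203 and COA1-206, from genes for mitochondrial mRNA stability and for assembly of respiratory complexes, averaged 11.4% ± 14.6 and 12.8% ± 14.5 in A375 and 0 in Jurkat (edgeR adjusted p = 0.000152 and 0.0494).

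CD46, a receptor that protects cells from complement, is known for alternative exons in its extracellular stem. CD46-208, which includes the 45-base exon, was between 0 and 53.8% in A375 wells (median 16.1%) and at most 0.000139% in Jurkat wells, with a mean of 18.4% ± 19.2 in A375 (SD, n = 16, edgeR adjusted p = 0.000137, permutation adjusted p = 0.00834). CD46-207, without that exon, had 22.7% in A375 and 11.7% in Jurkat, where the retained intron transcript CD46-212 led with 31.3%. HSPB1 encodes the small heat shock protein Hsp27. HSPB1-201, a protein coding isoform, averaged 47.8% ± 25 in A375 (SD, n = 13) and 0 in Jurkat (n = 14, edgeR adjusted p = 0.000218, permutation adjusted p = 0.00834). In Jurkat wells its counts went to HSPB1-202 (54.2%) and to the retained intron transcript ENST00000447574 (45.8%), against 12.9% and 39.3% in A375. The gene total of HSPB1 was 58.3 ± 38.3 CPM in Jurkat and 45.9 ± 28.5 in A375. This difference in the total of HSPB1 was not called (edgeR adjusted p = 0.705). RALGAPA1-219, from a gene that restrains Ral GTPases, averaged 32.1% ± 23.4 in A375 and 0 in Jurkat (edgeR adjusted p = 0.000639).

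VMP1, a membrane protein needed for autophagy, held a transcript that spans a microRNA gene. VMP1-217 is a single exon of 4325 bases, chr17:59837931-59842255 on the plus strand, classed as a retained intron, and the hairpin gene MIR21 (chr17:59841266-59841337, same strand) lies inside it. The mature miRNA encoded there is printed from RefSeq (GRCh38.p14) with its seed, bases 2 to 8, in capitals.
hsa-miR-21-5p: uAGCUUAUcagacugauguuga
VMP1-217 took between 18.4% and 83.9% of the counts of VMP1 in A375 wells (median 61.2%) and between 0 and 8.61% in the 9 Jurkat wells with enough counts, with means of 58.7% ± 18.5 and 1.85% ± 3.23 (edgeR adjusted p = 0.000902, permutation adjusted p = 0.00834). Over all wells it held 2740 counts in A375 and 5 in Jurkat. The gene total was also higher in A375, 305 ± 172 against 21 ± 29.6 CPM (log2 fold change 3.98 ± 0.52 SE, edgeR adjusted p = 1.65e-08). The mature miRNA itself was not measured.

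SFSWAP, a regulator of splicing, held the retained intron transcript SFSWAP-203 at 28.8% ± 26 in A375 and 0.956% ± 3.7 in Jurkat (edgeR adjusted p = 0.0141, permutation adjusted p = 0.0414). Its gene total was not called (edgeR adjusted p = 0.944). CPNE3, called by both tests as well, is described with the isoform exchanges.

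The dominant isoform, the one with the highest mean share in a line, was the same in both lines for 4243 of 5997 genes (70.8%), of which 339 genes have a single annotated transcript, and differed for 1754. It was a protein coding transcript for 86% of genes in A375 and 82.5% in Jurkat, a retained intron transcript for 4.05% and 4.55%, and a target of nonsense-mediated decay for 4.29% and 6.24%. It held a median of 51.8% of the gene's counts in A375 and 49.6% in Jurkat. In single wells the line's dominant isoform led in a median of 60% of A375 wells and 53.8% of Jurkat wells over genes with more than 1 transcript. Of the 1754 genes with another dominant isoform, 64 had a transcript called by edgeR and 76 by the permutation test, and in the remaining ones no transcript was called by that test. The genes with an exchange were also chosen after their values were seen. An exchange, in which the dominant isoforms of both lines are called in opposite directions, was found by edgeR in 0 genes and by the permutation test in 9 (CBX6, CPNE3, ITM2B, NASP, RBM39, SERF2, SUB1, TPTEP1 and ZFP36L1). For these 9 genes edgeR called the A375 isoform of CPNE3 (ENST00000517490) and ZFP36L1-202 and none of the other dominant isoforms.

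NASP, a histone H1 and H3 chaperone, exchanged the coding NASP-202 for NASP-206. NASP-202 was between 0.0078% and 91.5% in Jurkat wells (median 65.7%) and between 0 and 32.9% in A375 wells (median 17.4%), with means of 60.9% ± 21 and 16% ± 13.5 (permutation adjusted p = 0.00834, edgeR adjusted p = 0.752). NASP-206, a target of nonsense-mediated decay, had means of 31.8% ± 21.2 in A375 and 7.5% ± 12.8 in Jurkat (permutation adjusted p = 0.0276). The gene total was higher in Jurkat, 339 ± 137 against 150 ± 81.6 CPM (log2 fold change -1.07 ± 0.25 SE, edgeR adjusted p = 0.000522). SERF2, a small protein that promotes aggregation of amyloid proteins, exchanged SERF2-201 for SERF2-208. SERF2-208 was between 45.7% and 84.7% in A375 wells and between 0.369% and 48.1% in Jurkat wells, with means of 67.9% ± 11.4 and 28.6% ± 14.1 (permutation adjusted p = 0.00834, edgeR adjusted p = 1), and SERF2-201 had 24.3% ± 9.46 and 49.0% ± 16.1 (permutation adjusted p = 0.0276). The deposited SERF2-208 has 700 bases and its model in the annotation used here 3254, so its structure is not described.

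CBX6, another subunit of Polycomb repressive complex 1, exchanged isoforms that share an annotated start site. In the GENCODE models the 3′ end of CBX6-202 lies 2807 bases further downstream, but its model has 6052 bases and the deposited transcript 6122. CBX6-202 was between 62.1% and 100% in A375 wells and between 0 and 100% in Jurkat wells. Its means were 88.6% ± 13.2 (SD, n = 13) and 39.5% ± 33.9 (SD, n = 18, permutation adjusted p = 0.0143). CBX6-201 had 9.53% ± 11.3 and 54.3% ± 36.2 (permutation adjusted p = 0.0333). The groups overlapped. CPNE3, which encodes a calcium-dependent phospholipid-binding protein, held ENST00000517490 at 67.7% ± 33.3 in A375 and 7.97% ± 25 in Jurkat, and the retained intron transcript CPNE3-208 at 21% ± 27.6 and 78.6% ± 35.8 (permutation adjusted p = 0.0219 and 0.0393). In SUB1 and RBM39, a transcriptional coactivator and a splicing factor, the A375 isoform was a retained intron transcript: SUB1-202 had 31.1% ± 24 in A375 and 4.11% ± 6.66 in Jurkat, and RBM39-223 had 23.1% ± 9.26 and 4.85% ± 9.4 (permutation adjusted p = 0.00834 and 0.0117). The Jurkat isoforms SUB1-201 and RBM39-204 had 51.5% and 28.7% in Jurkat and 23.8% and 6.82% in A375, and with kit #634413 their differences were of the opposite sign (29.1% and 13.6% in Jurkat, 32.2% and 14.8% in A375). ITM2B, a membrane protein, held ITM2B-203, a target of nonsense-mediated decay, at 50.7% ± 25.5 in A375 and 19.5% ± 18.1 in Jurkat (permutation adjusted p = 0.0414), and the long noncoding TPTEP1 held TPTEP1-208 at 82.8% ± 16.6 (SD, n = 9) and 6.67% ± 11.1 (SD, n = 14, permutation adjusted p = 0.00834).

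**Figure D3:**
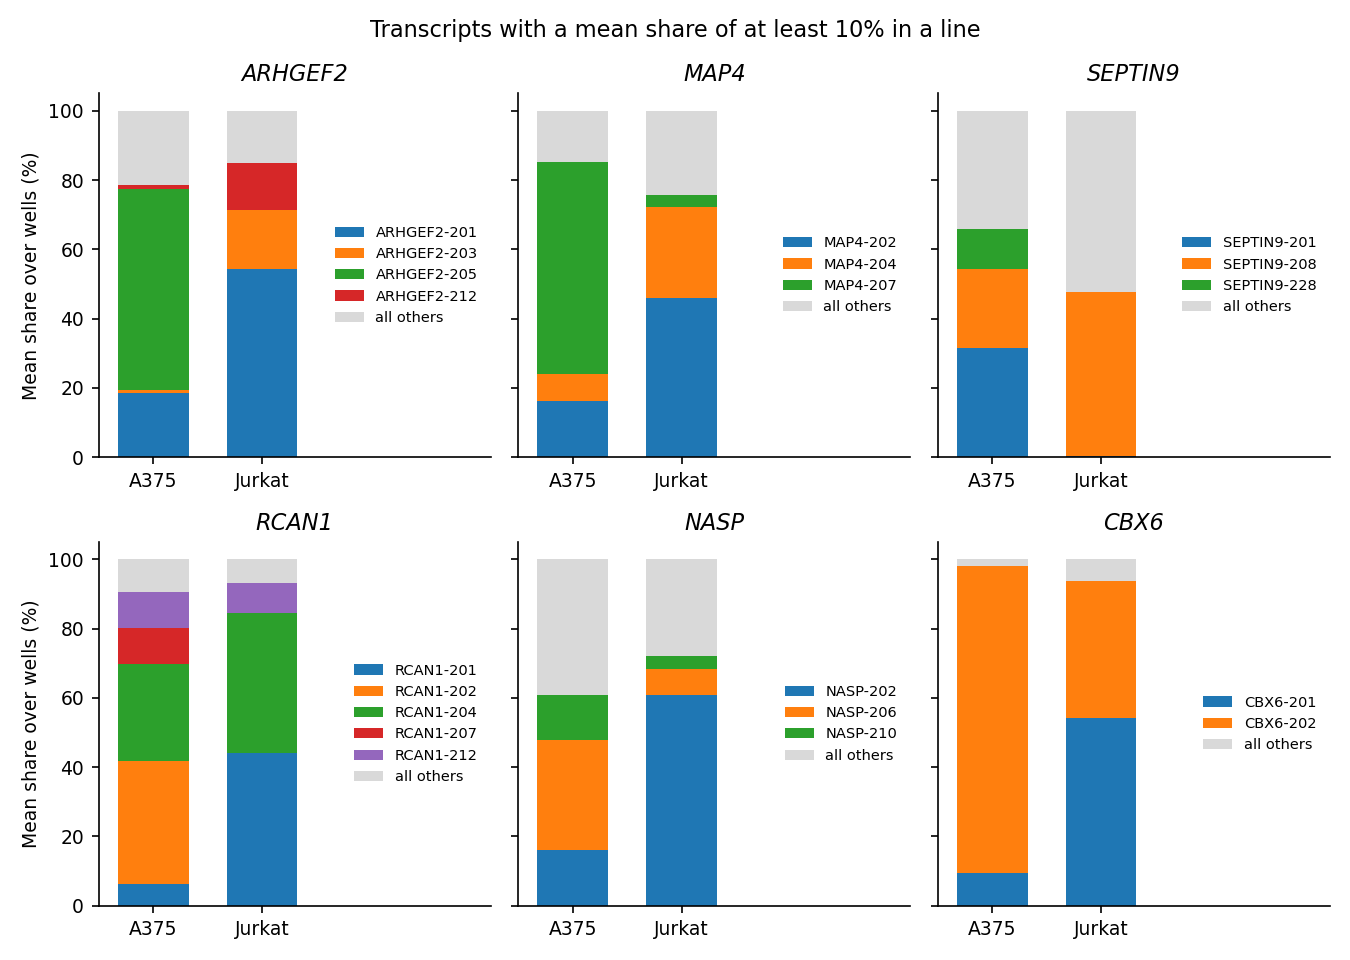
Mean share over wells (y axis, %) of each isoform with at least 10% in A375 or Jurkat, stacked for 6 genes, with all further isoforms in grey. ARHGEF2-205 fills 58% of the A375 bar and has no counts in that of Jurkat, MAP4-207 has 61.1% and 3.45%, and CBX6-202 has 88.6% and 39.5%.

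The same lines were also prepared with the other kit of the study, the SMARTer Stranded v2 Pico Input kit (#634413), with 17 A375 and 18 Jurkat wells of at least 200000 counts. A375 wells 8 and 11 of this kit, which were kept, held 53.4% and 48.5% of their counts on ribosomal DNA. The further A375 wells kept held at most 14.1%. In the wells of this kit, edgeR called 95 of 19718 transcripts (0.482%). Of the 125 transcripts called with kit #634444, 100 belonged to genes that passed the filter with kit #634413, and 81 of these had a difference of the same sign. Of the 59 that were also tested there, 15 were called, all 15 with the same sign. Among the 26 transcripts called by both tests, 23 had a value, 22 of them with the same sign, 18 were tested and 10 were called by edgeR. The permutation test called 4 of these 10 there, and of its own 129 calls 106 were tested and 11 called there. The 10 called by edgeR were ACOT7-204, ARHGEF2-205, CD46-208, HSPB1-201, MAP4-207, PHC2-201, PHC2-204, RCAN1-202, SEPTIN9-201 and SHMT2-202. Tested there and not called by edgeR were ZFHX3-201 (18% in A375, 3.19% in Jurkat), RBPJ-205 (14.2%, 3.69%), KLC1-206 (10.6%, 4.31%) and NKIRAS2-206. RALGAPA1-219 (32.6%, 0), SYNE1-219 (18.1%, 0), SFSWAP-203 (17.7%, 0.764%) and SYNE1-227 (10.7%, 0) were not called either. Not tested there were COA1-206 (5.45%, 1.36%), PHGDH-208 (5.42%, 0.147%), LRPPRC-203 (4.39%, 0), NUMB-221 (3.68%, 0) and SEPTIN9-228 (2.46%, 0). In the wells of kit #634413, ARHGEF2-205 averaged 36.2% ± 22 in A375 and 0 in Jurkat (edgeR adjusted p = 6.3e-08), MAP4-207 55.6% ± 27.2 and 1.87% ± 5.9 (edgeR adjusted p = 0.00174), and SEPTIN9-201 27.4% ± 24.3 and 0 (edgeR adjusted p = 4.65e-06). HSPB1-201 averaged 52.8% ± 31.6 there in A375 and 0 in Jurkat, RCAN1-202 40.5% ± 37.7 and 0.155% ± 0.537, and CD46-208 26% ± 34.7 and 0 (edgeR adjusted p = 0.0129, 0.00175 and 0.000826, permutation adjusted p = 0.0413, 0.146 and 0.0848). The permutation test did not call ACOT7-204, PHC2-201, PHC2-204 and SHMT2-202 there either (permutation adjusted p = 0.149, 0.27, 0.183 and 0.158). NKIRAS2-206 was the 1 of the 23 with the opposite sign, at 4.8% in A375 and 8.33% in Jurkat. The isoform exchange of NASP had 14.4% against 53.8% for NASP-202 there, and that of SERF2 72.8% against 29.8% for SERF2-208 (A375 against Jurkat, permutation adjusted p = 0.0413 and 0.0123). The dominant isoforms of CBX6, ITM2B and TPTEP1 kept the sign of their differences there but were not called. Their permutation adjusted p was 0.0685 for TPTEP1-208 and at least 0.276 for the others. SUB1-202 and RBM39-223 were not called there either (permutation adjusted p = 0.26 and 0.0511). CPNE3 and ZFP36L1 had no value with kit #634413.

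**Figure D4:**
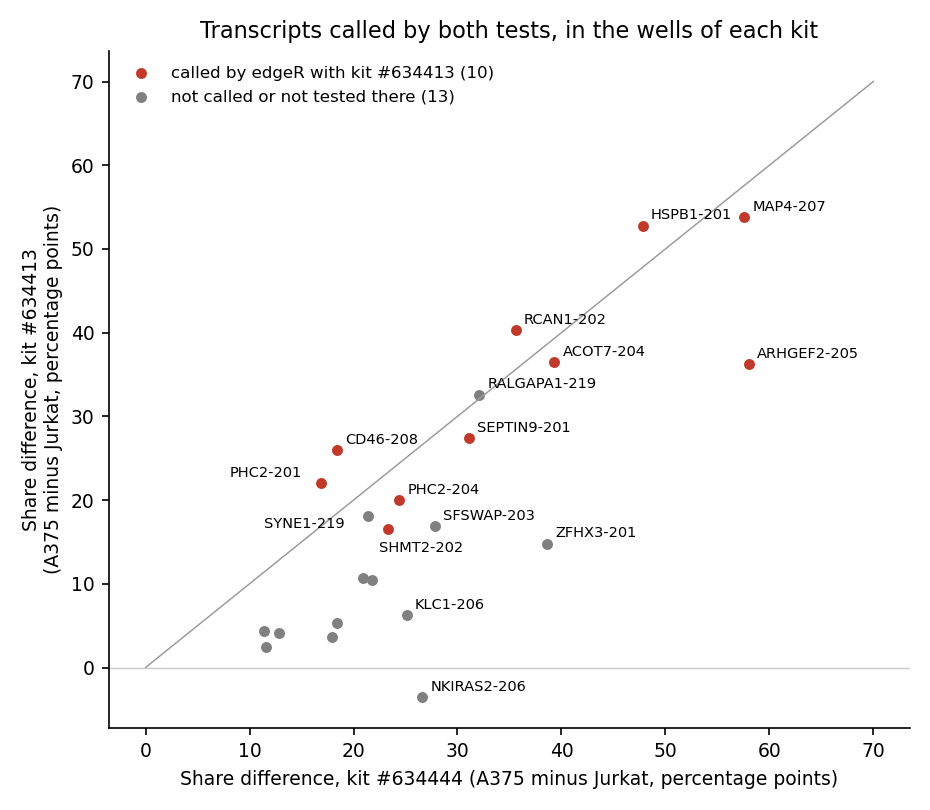
Difference in mean share, A375 minus Jurkat in percentage points, with kit #634444 (x axis) and with kit #634413 (y axis) for the 23 transcripts called by both tests that had a value with both kits, and a line of equal differences. The 10 red points were called by edgeR with kit #634413 too and NKIRAS2-206 lies below 0.

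Wells of a line carry neighbouring index numbers and fall into 3 blocks of 8 indices. The mean fragment length of a well, as the effective lengths give it, averaged 193.8, 196.8 and 220.2 bases in the blocks of A375 and 213.9, 206.5 and 202.3 in those of Jurkat, and the part of this difference in the shares was not tested. The block means of A375 spread from 48.9% to 63.2% for ARHGEF2-205 and from 53.8% to 70.6% for MAP4-207, but from 3.93% to 29.4% for CD46-208 and from 22.3% to 72.3% for HSPB1-201.

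Gene lists are described by counts, to be read against the calls over all genes tested, where edgeR called a transcript in 2.25% of genes, 0.424% of transcripts as higher in A375 and 0.111% as higher in Jurkat, and the permutation test called 0.553% of transcripts. In the actin cytoskeleton and adhesion list, 56 of 81 genes had 252 transcripts tested, and edgeR called 5 transcripts higher in A375 and 1 higher in Jurkat, in 5 genes (against 2.25% of all genes tested). These are SEPTIN9, PLEC, MACF1, MYH10 and CTNNA1. PLEC encodes plectin, which links actin, microtubules and intermediate filaments, and PLEC-202 averaged 33.8% ± 33.1 in A375 and 0.000451% in Jurkat (edgeR adjusted p = 0.000218, permutation adjusted p = 0.0616). MACF1-204, from the gene of a spectraplakin that crosslinks actin and microtubules, had 11.9% ± 17.7 and 0.302% ± 1.28 (edgeR adjusted p = 0.012, permutation adjusted p = 0.222). MYH10-202, from the gene of non-muscle myosin IIB, had 15.9% ± 33.2 and 0.000226% and exceeded 1% in 4 of 16 A375 wells (edgeR adjusted p = 0.000605, permutation adjusted p = 0.16). CTNNA1-210, from the gene of α-catenin of adherens junctions, was the 1 higher in Jurkat, with 11.7% ± 24.2 against 0.0266% ± 0.1 in A375, from 4 of 18 Jurkat wells above 1% (edgeR adjusted p = 0.0187, permutation adjusted p = 0.562). With kit #634413 the differences of MYH10-202 and CTNNA1-210 had the opposite sign, at 0.0021% in A375 and 1.71% in Jurkat and at 12.8% and 4.48%. Those of PLEC-202 (19.9% in A375, 2.61% in Jurkat) and MACF1-204 (10%, 2.24%) kept their sign and were not called by edgeR there. The permutation test called 4 transcripts of this list in 3 genes, SEPTIN9, WDR1, an actin filament disassembly factor, and CTNNA1. The transcript of CTNNA1 it called was CTNNA1-201, higher in A375 with 55% ± 24 against 9.33% ± 21 in Jurkat (permutation adjusted p = 0.0117, edgeR adjusted p = 0.137). Gene totals of this list were higher in A375 for 27 of 79 genes tested (against 20.4% of all genes tested). They were higher in Jurkat for 20 (against 14.2% of all genes tested). The median log2 fold change was -0.05 against 0.11 over all genes.

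Among 88 genes known for alternative splicing, 61 passed the gene filter, 59 had 310 transcripts tested, and edgeR called 6 transcripts in 6 genes (against 2.25% of all genes tested), 5 higher in A375 and 1 higher in Jurkat. Besides MAP4, CD46 and NUMB these are EPB41, EPB41L2 and ADGRE5. EPB41-202, from a gene of the membrane skeleton, averaged 14.3% ± 16.1 in Jurkat and 0 in A375 (edgeR adjusted p = 0.0187, permutation adjusted p = 0.1). ADGRE5-201, from the gene of the adhesion receptor CD97, averaged 15.5% ± 29.2 in A375 and 0 in Jurkat and exceeded 1% in 5 of 16 A375 wells (edgeR adjusted p = 0.0484, permutation adjusted p = 0.565). EPB41L2-201, from a related gene, averaged 12.1% ± 22 in A375 and 0 in Jurkat (edgeR adjusted p = 0.0144, permutation adjusted p = 0.481). The permutation test called 5 transcripts in 5 genes of this list (CASP2, CD46, MAP4, MPRIP and NUMB). The dominant isoform was the same in both lines for 34 of the 61 genes and differed for 27. The largest share difference of a gene had a median of 16.5 percentage points in this list and of 15.5 over all genes tested. PKM, whose mutually exclusive exons define the muscle and tumour forms of pyruvate kinase, had the same dominant isoform in both lines, PKM-202 with 51.4% in A375 and 52.8% in Jurkat, at gene totals higher in Jurkat (log2 fold change -1.10 ± 0.18 SE, edgeR adjusted p = 3.7e-06). RPS24-202 had 55% and 52.3%, TPM4-201 of the tropomyosin 4 gene 77.7% and 74.5%, and CLTA-202 of the clathrin light chain 84.8% and 92.8%. ITGA6, the laminin-binding integrin α6 whose splicing changes its cytoplasmic tail, had ITGA6-201 at 67.7% in A375 and 21.4% in Jurkat, and MBNL2, a splicing regulator, had MBNL2-201 at 43.8% and 3.61%. Neither was called (lowest permutation adjusted p of their transcripts 0.0891 and 0.109, lowest edgeR adjusted p 0.207 and 0.085).

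In the list of splicing regulators, 63 of 74 genes with 298 transcripts were tested and edgeR called 1 transcript, in 1 gene (against 2.25% of all genes tested). This was HNRNPK-205, at 13% ± 18.2 in A375 and 0.679% ± 2.14 in Jurkat (edgeR adjusted p = 0.0327, permutation adjusted p = 0.0987). HNRNPK encodes an RNA-binding protein with roles in splicing and translation. The permutation test called 6 transcripts in 4 genes of this list, HNRNPA1, HNRNPA2B1, HNRNPA3 and RBM39. Gene totals of splicing regulators were higher in Jurkat for 32 of 70 genes tested and higher in A375 for 7, with a median log2 fold change of -0.53, whereas over all 11727 genes 20.4% were higher in A375 (2393 genes) and 14.2% higher in Jurkat (1670 genes). The calls over all genes were higher in A375 in 58.9% of cases, and in 71.6% when genes with at least 1 count in 3 wells were tested, a filter under which the median log2 fold change was 0.46 in place of 0.11. In the list of clathrin, dynamin and vesicle traffic, 0 of 279 transcripts in 66 genes were called by edgeR (over all transcripts tested, 0.424% as higher in A375 and 0.111% as higher in Jurkat) and 0 by the permutation test (0.553%), with 19 at an unadjusted edgeR p under 0.05, and 13 of 73 gene totals were higher in A375 and 2 in Jurkat. The glycolysis list likewise had 0 of 42 transcripts called in 11 genes by either test, with 1 at an unadjusted edgeR p under 0.05, and 9 of its 16 gene totals were higher in Jurkat and 1 in A375 (median log2 fold change -1.14). Of 170 transcripts of 53 ribosomal protein genes, edgeR called 2, among them the retained intron transcript RPL26-201, at 24.7% ± 28.5 in A375 and 0 in Jurkat (edgeR adjusted p = 0.0486, permutation adjusted p = 0.157). Ribosomal protein genes have many near-identical pseudogenes, so their counts are uncertain.

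The gene total was called in 62 of 120 genes with a usage call. Of the 120 genes with a transcript called by edgeR, 46 had a gene total higher in A375 (against 20.4% of all genes tested) and 16 a total higher in Jurkat (against 14.2% of all genes tested). Among the 23 genes called by both tests the totals were higher in A375 for 13, higher in Jurkat for 2 (ACOT7 and SEPTIN9) and not called for 8.

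Transcript classes were compared as percentages of all counts of the 5997 genes. Protein coding transcripts held 64.6% ± 6.77 in A375 (SD, n = 16) and 71.2% ± 1.93 in Jurkat (SD, n = 18, permutation adjusted p = 3.33e-05), and the class of other transcripts, mostly noncoding RNAs and pseudogenes, 20% ± 5.77 and 12.3% ± 1.36 (permutation adjusted p = 2.5e-05). Targets of nonsense-mediated decay held 4.91% ± 0.231 and 5.7% ± 0.357 (permutation adjusted p = 2.5e-05), transcripts without a defined coding sequence 3.49% ± 0.444 and 4.05% ± 0.347 (permutation adjusted p = 0.0005), and retained intron transcripts 7.03% ± 1.28 and 6.8% ± 0.782 (permutation adjusted p = 0.518). A single A375 well, number 10, stood apart, with 42.8% protein coding and 38% other transcripts. It held 25% of its counts on ribosomal DNA, against a median of 8.68% over A375 wells. Its mean fragment length of 178.6 bases was the shortest of the A375 wells used. The lowest A375 shares of ARHGEF2-205 (0.0944%) and ZFP36L1-202 (25.5%) also came from this well. In TPM, which weights short noncoding RNAs more, no class difference passed the permutation test (protein coding -0.869 and other 0.552 percentage points, A375 minus Jurkat, permutation adjusted p = 0.873 for each). Within genes typed as protein coding, the protein coding class differed by -0.588 percentage points and nonsense-mediated decay by -0.331 (A375 minus Jurkat, permutation adjusted p = 0.589 and 0.101). The nuclear noncoding RNAs MALAT1, at 3.86% ± 1.8 of the counts in A375 and 0.914% ± 0.577 in Jurkat, and NEAT1, the scaffold of paraspeckles, at 1.37% ± 0.824 and 0.0157% ± 0.0173, were 2 of the leading members of the other class. Their gene totals were higher in A375 (edgeR adjusted p = 9.97e-09 and 2.74e-15), as was that of 7SK, the small nuclear RNA that restrains transcription elongation (1.81% ± 0.508 against 1.02% ± 0.202, edgeR adjusted p = 1.78e-08). RN7SL2, an RNA of the signal recognition particle, held 1.83% in A375 and 2.36% in Jurkat and was not called (log2 fold change -0.29 ± 0.17 SE, edgeR adjusted p = 0.209). Nuclear copies of mitochondrial genes, whose counts can hold reads of the mitochondrial genes themselves, were led by MTCO1P12 with 1.44% and 0.561% (edgeR adjusted p = 6.82e-09). The 15 leading members are those with the largest mean share in A375. Of these, 8 were such copies, and 7 of the 8 had a higher total in A375. The choice by the A375 share favours genes higher in A375, so the 20.4% over all genes tested is no like measure.

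**Figure D5:**
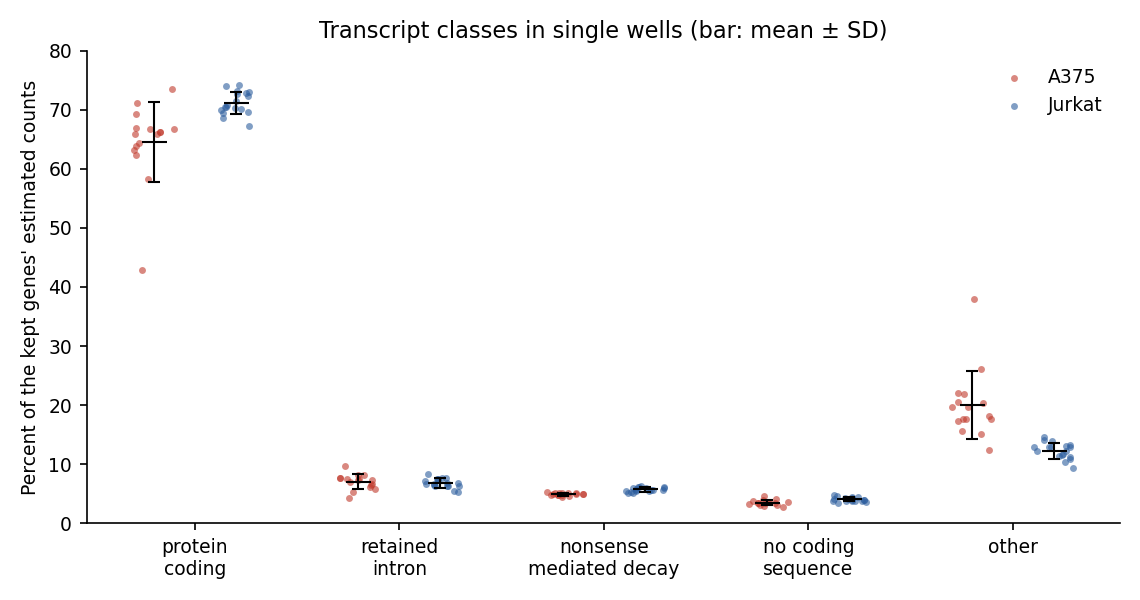
Percentage of the estimated counts of the 5997 genes (y axis) in 5 transcript classes (x axis) for each A375 well (red) and Jurkat well (blue), with mean and SD as black bars. The class of other transcripts lies between 12.3% and 38% for A375 and between 9.41% and 14.6% for Jurkat, and retained intron transcripts overlap.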

How the data were processed

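Single A375 and Jurkat cells were sorted by FACS and total RNA libraries were made with 2 kits. The authors trimmed reads with cutadapt, quantified them with Kallisto 0.43.1 in strand-specific mode against Ensembl transcripts, and used STAR 2.5.3 on hg38 for quality measures. The deposited values per transcript are estimated counts, not normalized, and TPM. Mean fragment length was read from the deposited effective lengths. The error of the counts' division among isoforms is not given in the sources used here.

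Groups follow the line and kit given in the labels of a well. The members, gene lists and tests were chosen with earlier results of these data known. A transcript was tested when its mean share over the wells of both lines together was at least 5% and its gene held another such transcript. The genes had 10 or more counts in 50% or more of A375 wells and of Jurkat wells. Estimated counts of all wells kept were rounded to whole numbers and tested with edgeR 4.0.16 (quasi-likelihood fit and diffSpliceDGE, R 4.3.3), with Benjamini-Hochberg adjustment. Shares per well, in wells with 10 or more counts of the gene, were also tested by a two-sided permutation test (100000 resamples, numpy 2.4.6). The smallest unadjusted p it can give is 1e-05. A call needed an adjusted p under 0.05 and a difference of at least 10 percentage points. Gene totals were tested with edgeR and TMM scaling in genes with 5 or more counts in 25% or more of wells, and with DESeq2 1.42.0 as an alternative. CPM are counts scaled to the total of the well. The scripts were tested on simulated data. Coordinates and exons came from GENCODE 44 (GRCh38), in which 195850 of 200471 targets were found. Of the 23341 transcripts tested, 17548 had the deposited length there. Among those whose sequences are shown, SEPTIN9-201 has 4453 bases as deposited and 4451 in GENCODE, and CD46-208 has 3326 and 3320.

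The genes named were to be those with an exchange of dominant isoforms by edgeR, called genes of the lists (up to 5 a list), members of the list of known alternative splicing, and markers. Since edgeR found 0 exchanges, the transcripts called by both tests and the exchanges of the permutation test were added after the data were seen. Genes on X and Y were left out. Some results of the lists are not reported here. Intervals and upper limits cover counting error only.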

Additional observations from a re-analysis of the deposited data

Results flagged for a closer look

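For 3 transcripts named in the report the difference between the lines differed between the kits, by the interaction of line and kit in edgeR. With kit #634444, CTNNA1-210 had 0.0266% in A375 and 11.7% in Jurkat, while it had 12.8% in A375 and 4.48% in Jurkat with kit #634413 (interaction adjusted p = 0.022, edgeR). MYH10-202 had 15.9% in A375 and 0.000226% in Jurkat with kit #634444, and 0.0021% and 1.71% with kit #634413 (interaction adjusted p = 0.000307, edgeR). SEPTIN9-201 was higher in A375 with both kits, 31.4% against 0.268% and 27.4% against 0 (interaction adjusted p = 0.0358, edgeR). Over all transcripts, 47 of 23341 had an interaction adjusted p under 0.05 in edgeR, 8 of them among the 125 transcripts called.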

How the results depend on the processing

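The number of transcripts called by edgeR (125 in 120 genes) was 79 in 77 genes when the difference of 10 percentage points was required of shares of TPM, with the p-values of the counts kept. It was 80 in 79 with a mean share of at least 10%, 79 in 78 with protein coding transcripts only, and 50 in 47 by the permutation test in the wells of kit #634413, an alternative chosen after seeing the data. The other alternatives gave between 85 and 129 transcripts. Exchanges of dominant isoforms numbered 0 by edgeR, 9 by the permutation test, 1 by edgeR with kit #634413 and 3 by the permutation test there. Gene totals called numbered 4063, and 8495 with at least 1 count in 3 wells and 2441 with kit #634413. Of the 26 transcripts called by both tests, 20 kept a difference of at least 10 percentage points in shares of TPM and 24 in shares of counts summed over wells, settings under which the test was not refitted. In wells of at least 400000 counts, where it was, edgeR called 22. Of the 35 named transcripts that edgeR called, 30 had a value with kit #634413, where 10 were called with the same sign, 17 were not called and 3 had the opposite sign. The share differences with the opposite sign there (A375 minus Jurkat, percentage points) were 8.31 for CTNNA1-210, -1.71 for MYH10-202, -3.53 for NKIRAS2-206, 1.25 for RBM39-204 and 3.15 for SUB1-201.

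The class differences lost their call in TPM, at -0.869 for protein coding, -0.235 for nonsense-mediated decay and 0.552 for other transcripts, and that of transcripts without a defined coding sequence reversed to 0.0451. Within protein coding genes, chosen after seeing the data, they were -0.588, -0.331 and -0.2 for protein coding, nonsense-mediated decay and no coding sequence. The retained intron class reversed to -1.59 with kit #634413. With that kit this class held 1.3% to 8.9% in A375 wells and 7.02% to 10.3% in Jurkat wells. Protein coding transcripts held 5.05% to 70.8% and 64.4% to 71.1% there. The cause of these changes was not tested. No paired analysis was possible because the wells are numbered in accession order and no label pairs an A375 well with a Jurkat well. Median gene counts of 37 and 38.5 per well limit the shares of single wells.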
